A study of Homo sapiens with 24 samples.

Results

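Of the 189403 open-chromatin peaks in T47D cells, 18279 (9.65%) lay in gene deserts. A peak was taken as a gene-desert peak if its midpoint was more than 200 kb from the interval of every protein-coding gene on hg38 and if it was not in a run of 8 or more peaks with neighbouring midpoints at most 5 kb apart. Of the other peaks, 90255 lay inside a coding gene, 80511 lay outside genes at 200 kb or less, and 358 were far enough away but stood in such a run. The rule used positions only, so no accessibility value chose the peaks.

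T47D is a human luminal breast cancer line that carries estrogen receptor alpha, and it was profiled by ATAC-seq in 6 groups of 4 libraries, all treated for 1 h. Starved cells had spent 3 days in medium free of phenol red with charcoal-stripped serum and then received either 0.1% DMSO (starved vehicle) or 1 nM estradiol (starved estradiol). Cells in complete medium with untreated serum had spent 1 day in culture and received 0.1% DMSO (complete vehicle) or 100 nM fulvestrant, raloxifene or tamoxifen. All groups come from the same line, and the labels do not say whether the 4 libraries of a group came from separate cultures, so p-values measure only the spread between these libraries. Medium, days in culture and number of cells plated differ together between starved and complete groups and cannot be told apart.

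Gene deserts are long stretches of chromosome without protein-coding genes. Many of them hold enhancers, short control sequences bound by transcription factors that can act on a gene far along the chromosome, and deserts beside developmental regulators are known for this. ATAC-seq uses the Tn5 transposase, which cuts where DNA is free of nucleosomes, so the number of fragments over a site rises with how often that site is open. Estrogen receptor alpha is a ligand-activated transcription factor that binds mostly away from promoters. Estradiol activates it, tamoxifen and raloxifene bind it as selective modulators, and fulvestrant is an antagonist that also leads to its degradation.

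Sequence could be read for the gene-desert peaks that overlap the promoter window of a long non-coding RNA (lncRNA) gene. Of the gene-desert peaks, 179 overlapped 196 RefSeq promoter windows (GRCh38.p14, 250 bases before to 50 bases after the start) of 180 lncRNA genes. The windows below are the ones whose peak differed most between media in each direction and those of the highest accessibility. They are written 5′ to 3′ on the strand of the lncRNA, with the bases inside the peak in capitals. The peaks of LINC03007 and LINC00494 cover the start itself, and the other peaks end upstream of it.
LINC03007: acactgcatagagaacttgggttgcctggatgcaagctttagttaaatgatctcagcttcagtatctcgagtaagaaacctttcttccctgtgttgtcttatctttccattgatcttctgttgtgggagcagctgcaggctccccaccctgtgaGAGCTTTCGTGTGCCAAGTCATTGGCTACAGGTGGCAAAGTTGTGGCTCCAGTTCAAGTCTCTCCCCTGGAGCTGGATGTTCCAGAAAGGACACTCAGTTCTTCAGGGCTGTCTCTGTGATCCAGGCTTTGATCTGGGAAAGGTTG
LINC00494: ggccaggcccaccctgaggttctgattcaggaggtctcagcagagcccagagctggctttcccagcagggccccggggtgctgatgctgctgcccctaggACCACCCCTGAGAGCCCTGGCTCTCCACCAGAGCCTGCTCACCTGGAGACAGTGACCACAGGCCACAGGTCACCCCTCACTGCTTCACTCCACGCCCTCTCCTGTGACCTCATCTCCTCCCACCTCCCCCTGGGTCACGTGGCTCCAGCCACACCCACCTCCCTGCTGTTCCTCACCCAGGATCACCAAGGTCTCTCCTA
LOC105373451: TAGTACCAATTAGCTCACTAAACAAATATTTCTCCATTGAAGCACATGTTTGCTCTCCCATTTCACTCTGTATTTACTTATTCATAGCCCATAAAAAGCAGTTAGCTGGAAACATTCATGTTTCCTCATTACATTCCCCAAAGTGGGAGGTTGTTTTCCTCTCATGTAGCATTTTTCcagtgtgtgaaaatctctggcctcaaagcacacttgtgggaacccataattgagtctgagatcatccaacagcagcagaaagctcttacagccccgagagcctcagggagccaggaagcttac
LOC105377378: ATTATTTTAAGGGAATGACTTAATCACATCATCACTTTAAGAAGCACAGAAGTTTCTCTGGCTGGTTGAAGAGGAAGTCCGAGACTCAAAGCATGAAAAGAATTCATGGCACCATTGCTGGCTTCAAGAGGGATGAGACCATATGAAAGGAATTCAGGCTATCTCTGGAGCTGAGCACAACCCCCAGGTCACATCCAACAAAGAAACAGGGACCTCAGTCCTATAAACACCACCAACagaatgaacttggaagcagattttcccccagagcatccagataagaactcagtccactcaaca
LOC105369583: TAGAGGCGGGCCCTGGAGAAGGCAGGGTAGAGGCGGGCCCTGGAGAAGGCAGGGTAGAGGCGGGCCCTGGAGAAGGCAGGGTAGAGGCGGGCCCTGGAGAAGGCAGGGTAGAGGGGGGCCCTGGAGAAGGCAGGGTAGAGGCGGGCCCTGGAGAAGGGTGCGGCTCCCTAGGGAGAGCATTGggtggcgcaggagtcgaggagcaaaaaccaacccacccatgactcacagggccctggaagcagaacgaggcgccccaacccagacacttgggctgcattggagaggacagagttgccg
MIR4458HG: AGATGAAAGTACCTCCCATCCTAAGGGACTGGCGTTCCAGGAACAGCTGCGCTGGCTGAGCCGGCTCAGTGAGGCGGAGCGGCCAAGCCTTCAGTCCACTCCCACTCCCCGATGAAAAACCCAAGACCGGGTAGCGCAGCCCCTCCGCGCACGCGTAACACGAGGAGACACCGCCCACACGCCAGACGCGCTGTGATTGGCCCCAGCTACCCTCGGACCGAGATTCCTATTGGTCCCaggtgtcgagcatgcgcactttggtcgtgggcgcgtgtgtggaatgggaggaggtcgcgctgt

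These windows lie at chr7:25663091-25663390 (minus strand) for LINC03007, chr20:48359661-48359960 (plus) for LINC00494 and chr2:18311442-18311741 (minus) for LOC105373451. The other windows lie at chr4:114364864-114365163 (minus) for LOC105377378, chr11:134639931-134640230 (plus) for LOC105369583 and chr5:8457437-8457736 (plus) for MIR4458HG. The LOC105369583 window holds a word of 15 bases in 6 copies, and the MIR4458HG window holds 26 CpG dinucleotides. The search covered both strands of each window. The forkhead motifs TGTTTAC or TGTTTGC stood in 14.3% of the 196 windows, in 8.99% of the 12917 lncRNA windows and in 7.17% of all 35116 windows. The AP-1 motif TGANTCA stood in 12.2%, 10.4% and 7.71% of the same sets, and the GATA motif AGATAAG in 4.08%, 3.31% and 2.68%. The full estrogen response element (GGTCA and TGACC, spaced by 3 bases of any kind) stood in 0% of the 196 windows, in 0.0929% of lncRNA windows and in 0.057% of all windows. A steroid response element (GNACA and TGTNC, likewise spaced by 3 bases) was in 0.51%, 0.557% and 0.39%, a grainyhead motif (AAC and GTT spaced by 2 bases) in 3.06%, 4.05% and 3.52%, and a CTCF core (CCANNAG and GGC spaced by 2 bases) in 2.55%, 2.21% and 2.41%. None of these words contains another, a window can hold several, and a match says only that the letters are there. Median GC content was 49.2% in the 196 windows, 50.0% in lncRNA windows and 58.7% in all windows.

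The values below are CPM, counts at a peak relative to the library's total after scaling by the trimmed mean of M-values (TMM), and a fold change is a log2 ratio from 1 edgeR fit to all 24 libraries. A peak is called where its quasi-likelihood p is under 0.05 after the Benjamini-Hochberg adjustment, which ran over every tested peak of the table. Totals ran from 2422981 to 12140005 counts in 23 libraries, the lowest of these being starved vehicle replicate 3. The last library, fulvestrant replicate 4, held only 434598, and 46.3% of the gene-desert peaks had no count in it, against 17.7% in starved vehicle replicate 3 and at most 5.55% in any other library. A low count at a site cannot tell fewer cells with that site open from less opening in each cell. Within groups, replicates 3 and 4 were higher than replicates 1 and 2 at 242 gene-desert peaks and lower at 580 (1.75% and 4.2%), beside 1.95% and 4.25% of all tested peaks, and the labels do not say what sets these replicates apart. Complete vehicle replicates 3 and 4 carry a treatment label that names fulvestrant while their titles name DMSO, and they were grouped by title. Of 9 luminal breast markers, 8 had a peak in the gene, at 14.4 to 46.7 CPM for the highest peak of each, and ELF3 had none. Peaks also stood in 6 of 8 basal or mesenchymal genes (2.14 to 40.2 CPM, none in KRT5 or KRT14), in 6 of 6 blood genes (1.17 to 33.8 CPM) and in 3 of 3 endothelial genes (2.44 to 11.2 CPM).

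Gene-desert peaks were weaker than peaks elsewhere. Their mean accessibility had a median of 1.37 CPM (5th to 95th percentile 0.354 to 8.94), against 2.13 CPM (0.443 to 24.4) for the other peaks, at nearly the same width (median 224 and 226 bp). In 52.2% of them no other peak had its midpoint within 5 kb, against 37.5% elsewhere, but the rule took dense runs out of the desert peaks and left them among the others, so this gap is partly set by the rule. An lncRNA gene contained 28.7% of them, against 14% of other peaks. Of those other peaks 90255 lay inside coding genes, where the rule allows no desert peak. No comparison was made with only the other peaks outside genes. They fell into 796 deserts, the stretches between successive coding genes, with a median of 14 peaks in each. A single peak was all that 42 deserts held, 105 held 50 or more, and the fullest held 181. Distances to the nearest coding gene ran from 200.008 to 4955 kb with a median of 396 kb, and 1663 peaks were beyond 1 Mb. Chromosomes differed widely in how many of their peaks were in deserts, from 0.845% (45 peaks) on chromosome 19 to 15.9% (1211) on chromosome 4, 17.5% (690) on chromosome 13 and 18.4% (542) on chromosome 21. The stretches that reach a chromosome end or exceed 5 Mb hold 836 of the peaks, 6 peaks lie in ribosomal RNA genes and 7 in immunoglobulin or T cell receptor segments. Of all gene-desert peaks 13806 (75.5%) had enough counts to be tested, against 83.5% of the others.

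The share of a library's counts that fell in gene-desert peaks was higher in starved than in complete medium. It was 5.09%, 5.13%, 4.88% and 5.00% in the starved vehicle libraries (mean 5.02% ± 0.111, SD, n = 4) and 4.94%, 5.15%, 4.98% and 4.91% with estradiol (4.99% ± 0.108, n = 4). In complete vehicle libraries it was 4.57%, 4.71%, 4.52% and 4.58% (4.60% ± 0.0788, n = 4). The 8 starved libraries all lay above the 4 complete vehicle libraries, and the starved groups overlapped each other. With raloxifene the share was 4.51% ± 0.0948 and with tamoxifen 4.55% ± 0.104 (n = 4 each), both overlapping complete vehicle. The fulvestrant libraries gave 4.60%, 4.54%, 4.82% and 5.91%, the last from the shallow replicate 4, and the group's mean of 4.97% ± 0.643 was 4.65% without it. No test was run on these shares.

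**Figure D1:**
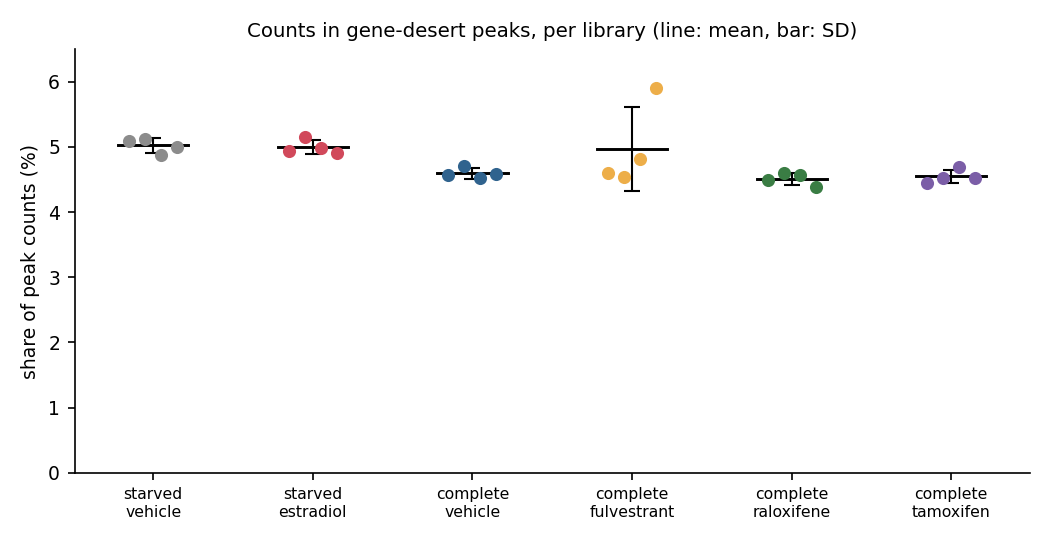
Share of each library's counts that lies in gene-desert peaks, in percent, by group (points are libraries, lines the group mean, bars the SD). The starved libraries sit between 4.88% and 5.15%, above the complete vehicle libraries at 4.52% to 4.71%, and fulvestrant replicate 4 stands apart at 5.91%.

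Estradiol raised accessibility at a small set of gene-desert peaks within 1 h. Of the 13806 tested, 115 were called higher and 8 lower than in starved vehicle (0.833% and 0.0579%), and over all 156745 tested peaks 0.813% were higher and 0.0223% lower. So the share raised in deserts was close to the share raised anywhere. The median log2 change of the 115 was 1.60, 89 of them rose at least 2-fold (0.612% of all tested peaks did), and 2 of the 8 fell as far (0.0115%). In 109 of the 115 the 4 estradiol libraries all lay above the 4 vehicle libraries (0.754% of all tested peaks were called and did so). The called share did not run with distance: it was 0.821% inside genes, 0.742% within 50 kb, 0.952% at 50 to 200 kb, 0.832% (74 peaks) at 200 to 500 kb, 0.925% (34) at 0.5 to 1 Mb and 0.566% (7) beyond 1 Mb. Over 4 equal classes of mean accessibility, from the weakest to the strongest, 0.14%, 0.551%, 1.12% and 3.33% of gene-desert peaks were raised, beside 0.191%, 0.523%, 0.942% and 1.59% of all peaks. Peaks standing in runs of 2 to 7 were raised in 69 of 6475 cases (1.07%), lone peaks in 46 of 7331 (0.627%). Inside lncRNA genes 40 of 4100 (0.976%) were raised, outside them 75 of 9706 (0.773%), and none of the 160 tested peaks that overlap an lncRNA promoter window was called in either direction. The splits by run and by lncRNA gene were not made over all tested peaks and are not read as particular to deserts. With 0.813% of all tested peaks raised, few calls would be expected among 160, so their absence is not read as a difference. In replicates 1 and 2 alone estradiol raised 82 and lowered 3 gene-desert peaks, and in replicates 3 and 4 alone it raised 69 and lowered 5. Calls over all tested peaks were not counted in these subsets.

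The sites with the largest gains among those above the median accessibility of tested gene-desert peaks, with groups that do not overlap, are named here by their nearest coding gene, which only gives the position. Larger changes than any of them stood at 2 peaks outside that rule, chosen after their values were seen. The peak 277 kb from NRIP1, a nuclear receptor co-regulator gene, went from a mean of 0.0826 to 1.64 CPM (log2 change 3.84, edgeR adjusted p = 0.000249). The peak 331 kb from the endocytic adaptor gene DAB2 went from 0.209 to 2.68 CPM (log2 change 3.25, edgeR adjusted p = 3.93e-06). The peak at chr6:139879995-139880206, 505 kb from CITED2, a transcriptional co-regulator gene, had 0.576, 0.497, 0.802 and 0.364 CPM in the starved vehicle libraries and 3.13, 2.56, 5.70 and 5.66 CPM with estradiol. Every estradiol library was above every vehicle library, and the log2 change was 3.08 (SE 0.405, edgeR adjusted p = 3.93e-08). The peak at chr5:174483491-174483718, inside the lncRNA gene LINC01411 and 241 kb from MSX2, which encodes a homeobox factor, went from 0.231, 0.746, 0.802 and 0.637 CPM to 7.26, 4.48, 4.59 and 3.34 CPM. The groups did not overlap, and the log2 change was 3.08 (SE 0.403, edgeR adjusted p = 3.92e-08). The peak at chr15:95783289-95783554, 543 kb from NR2F2, an orphan nuclear receptor gene, went from 1.04, 0.995, 1.20 and 0.637 CPM to 4.88, 5.22, 5.02 and 3.86 CPM. Its log2 change was 2.4 (SE 0.341, edgeR adjusted p = 3.57e-07). In complete vehicle medium it had 1.95 CPM ± 0.727 (n = 4), which was not called different from starved vehicle (edgeR adjusted p = 0.0763).

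Farther out, chr13:81390136-81390358 lay 1050 kb from SPRY2, which encodes an inhibitor of growth factor receptor signalling. Its starved vehicle libraries had 0, 0.87, 1.20 and 1.09 CPM and its estradiol libraries 3.88, 4.80, 5.87 and 3.99 CPM. All estradiol libraries were higher, with a log2 change of 2.68 (SE 0.368, edgeR adjusted p = 1.44e-07). The lone peak at chr3:164634939-164635184, 344 kb from the sucrase-isomaltase gene SI, had 1.04, 0.995, 0.802 and 0.91 CPM and then 6.63, 6.71, 6.38 and 4.63 CPM. The vehicle libraries lay close together and below every estradiol library, and the log2 change was 2.66 (SE 0.325, edgeR adjusted p = 4.63e-09). At chr6:105628507-105628839, between the peptidase gene PREP (226 kb) and PRDM1, which encodes a transcriptional repressor, vehicle libraries had 0.807, 1.37, 0.802 and 1.00 CPM and estradiol libraries 8.63, 6.29, 5.44 and 5.01 CPM. The groups were far apart, with a log2 change of 2.59 (SE 0.313, edgeR adjusted p = 2.99e-09).

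The remaining sites named by size of change rose by log2 2.49 to 3.24. They lay beside SARAF (chr8:29719254-29719590), C8orf34 (chr8:69111661-69111895), SOX5 (chr12:23235581-23235781), LRFN5 (chr14:40816470-40816741), IRF8 (chr16:86215276-86215567) and PIK3R1 (chr5:68545707-68545907). The SARAF site, beside a gene for a regulator of calcium entry, had the largest change of these, from 0.403 CPM ± 0.295 to 3.04 CPM ± 1.33 (n = 4 each). The PIK3R1 site, beside the gene for a regulatory subunit of phosphoinositide 3-kinase, went from 0.366 CPM ± 0.186 to 2.16 CPM ± 0.653 and reached 5.98 CPM ± 0.856 in complete vehicle medium (n = 4 each).

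**Figure D2:**
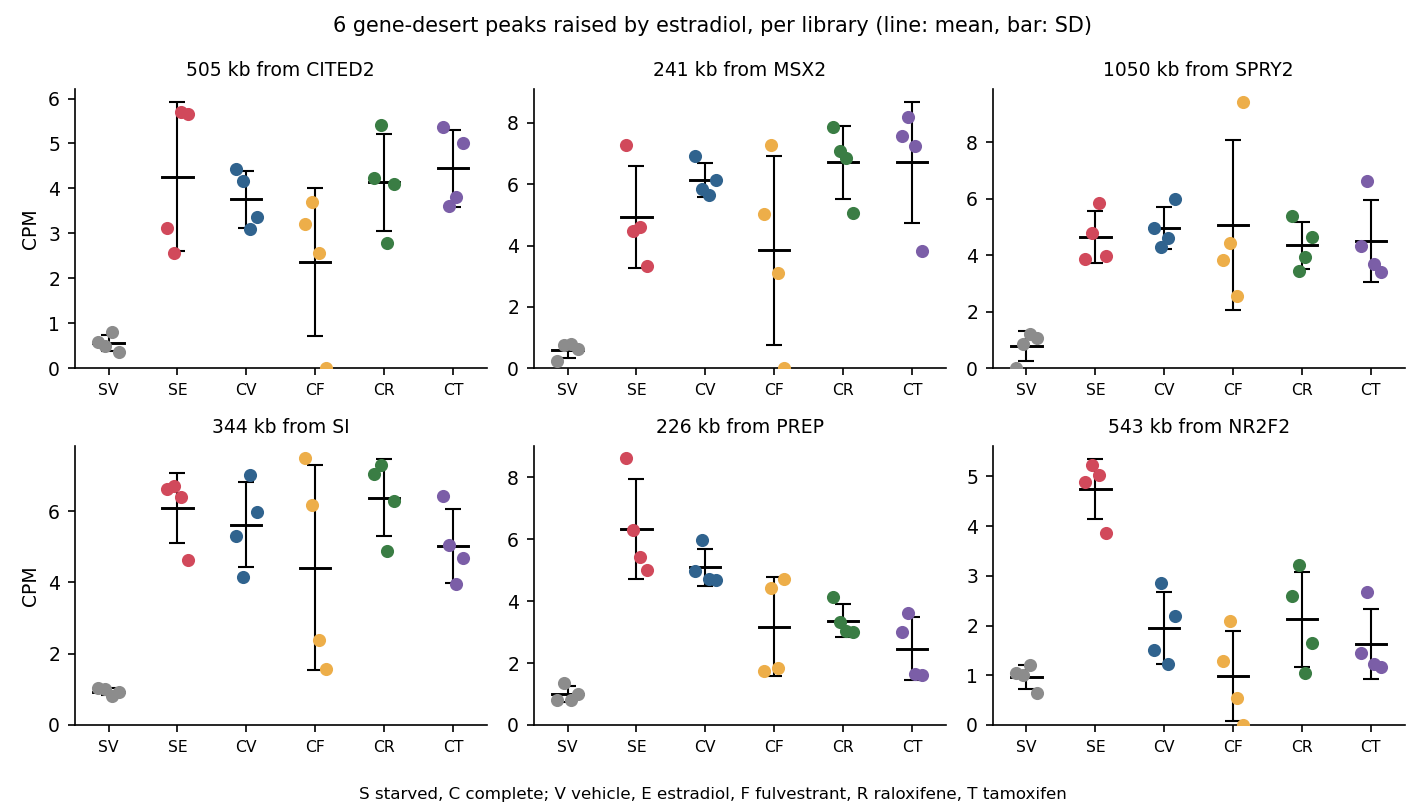
Accessibility in CPM (linear axes from 0, each panel with its own scale) of 6 gene-desert peaks raised by estradiol, each point 1 library, with the group mean (line) and SD (bar) for all 6 groups. The estradiol libraries lie above all starved vehicle libraries at these sites, for example 2.56 to 5.70 against 0.364 to 0.802 CPM at the site 505 kb from CITED2.

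The site with the highest accessibility among those raised, chr8:128142022-128142326, lay 399 kb from MYC, the growth regulator gene, in the desert before GSDMC. Starved vehicle libraries had 41.6, 42.0, 19.2 and 39.0 CPM, estradiol libraries 68.3, 72.3, 74.4 and 70.6 CPM. The lowest vehicle value was that of the shallow replicate 3, the groups did not overlap, and the log2 change was 0.90 (SE 0.117, edgeR adjusted p = 2.32e-07).

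Losses after estradiol were few. At chr3:177618880-177619124, inside the lncRNA gene LINC00578 and 417 kb from TBL1XR1, which encodes a subunit of a co-repressor complex, vehicle libraries had 14.3, 18.0, 19.2 and 17.7 CPM and estradiol libraries 9.51, 13.6, 8.08 and 10.8 CPM. The groups did not overlap, and accessibility fell by 0.70 on the log2 scale (SE 0.149, edgeR adjusted p = 0.00212). Other lowered peaks were beside ST8SIA4, SORCS1, CNTNAP5 and FAM174A, with log2 changes of -1.24 to -0.68. A further pair, beside ZMIZ1 and DUSP26, fell outside the rule for named peaks and are named because the list of 8 is short; they were chosen after their values were seen (10.4 to 5.39 CPM and 2.33 to 0.80 CPM). This count is small enough that single libraries move it: it was 2 without starved estradiol replicate 4, 3 without starved vehicle replicate 2 or starved estradiol replicate 1, 4 without starved estradiol replicate 3, and 1 with DESeq2. It was 11 without starved estradiol replicate 2, 15 with the replicate number as a block and 13 with the replicate set nested in medium.

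The raised sites stood in 79 of the 780 deserts with a tested peak, and 56 of these 79 held 1. Estradiol raised 0.833% of tested gene-desert peaks and 0.813% of all tested peaks. The other 23 deserts held 59 raised peaks. Peaks of 1 desert are neighbours and not independent, and the deserts on chromosomes 2, 8 and 5 below were named for having most calls. On chromosome 2, the 939.727 kb desert between TNP1, a sperm nuclear protein gene, and TNS1, which encodes a focal adhesion protein, had 5 raised peaks of 40 tested, and the median log2 change of all 40 was 0.197. They included a lone peak 412 kb from TNS1 that went from a mean of 14.7 to 28.9 CPM and one 388 kb from TNP1 that went from 21.7 to 33.5 CPM. On chromosome 8, 4 of 33 tested peaks rose between KCNU1 and ZNF703, a luminal transcriptional regulator gene, and on chromosome 5, 4 of 29 rose between LOC124900192 and DTWD2. Between ETNK1 and SOX5 on chromosome 12, the raised sites nearest to SOX5, an SRY-related factor gene, were 3 peaks at 294 to 304 kb, of which chr12:23225839-23226076 went from 2.46 CPM ± 0.742 to 11.1 CPM ± 1.9 (n = 4 each).

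Complete and starved vehicle libraries differed at many more gene-desert peaks than starved estradiol and starved vehicle libraries did. Most of these peaks were lower in complete medium, where days in culture and number of cells plated differed as well. Compared with starved vehicle, 833 of the 13806 were higher and 1991 lower in complete vehicle medium (6.03% and 14.4%), while over all tested peaks 7.93% were higher and 9.91% lower. The 2-fold mark was passed by 589 and 1439 of them, and by 4.7% and 6.09% of all tested peaks. The median log2 change was -0.126 over gene-desert peaks and 0.021 over all tested peaks. The share that was lower in complete medium rose with distance from coding genes, from 9.93% inside genes and 7.71% within 50 kb to 12.1% at 50 to 200 kb, 13.8% at 200 to 500 kb, 14.9% at 0.5 to 1 Mb and 17.5% beyond 1 Mb. The share that was higher was 8.26%, 7.84%, 8.08%, 6.66%, 4.87% and 5.01% in the same classes. Accessibility differs between deserts and the rest, so the split was repeated in the same 4 classes of mean accessibility. From the weakest class to the strongest, 12.1%, 12.5%, 17.4% and 21.4% of gene-desert peaks were lower, against 7.92%, 9.49%, 12.8% and 9.48% of all peaks. For higher peaks the shares were 3.19%, 4.96%, 8.13% and 14.1% in deserts and 4.35%, 7.07%, 10.1% and 10.2% overall. Just inside the 200 kb limit (200 to 210 kb), 40 of 562 tested peaks were higher and 80 lower, and just outside (190 to 200 kb) the numbers were 38 and 86 of 578. Without both complete vehicle libraries with conflicting labels the lower count was 1286. In replicates 1 and 2 alone 572 were higher and 1478 lower, and in replicates 3 and 4 alone 366 were higher and 764 lower. Calls over all tested peaks were not counted in these subsets of libraries.

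**Figure D3:**
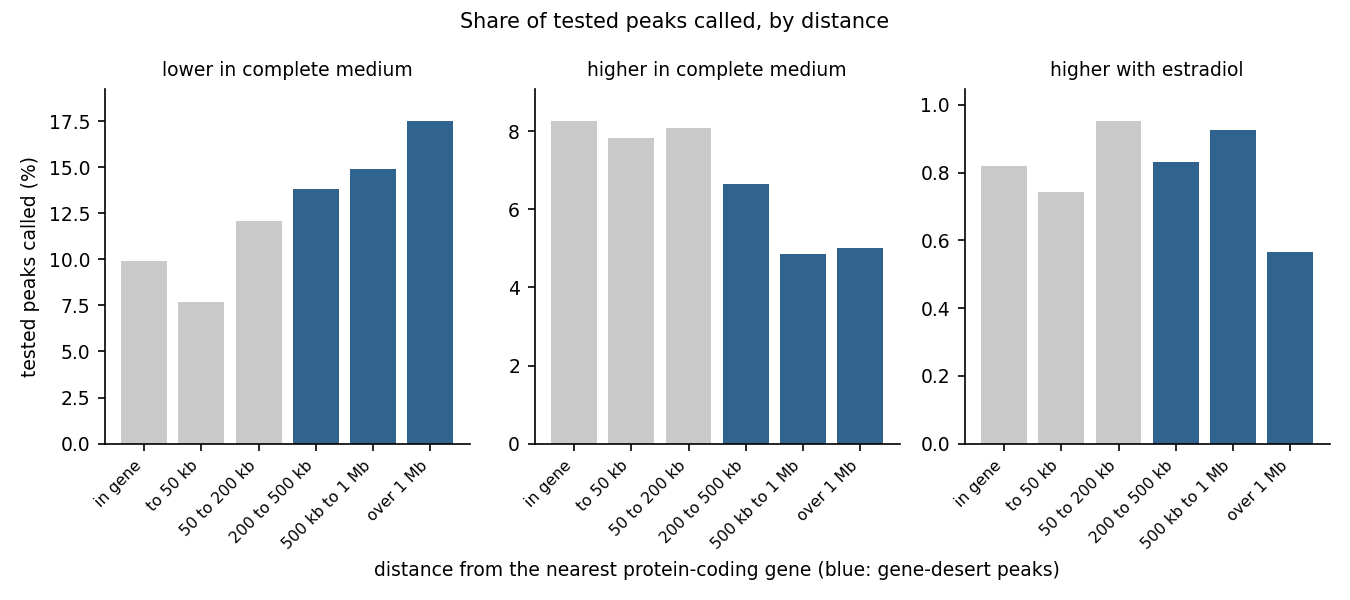
Percent of tested peaks called higher or lower, by distance from the nearest protein-coding gene, for complete against starved medium (lower, then higher) and for estradiol (higher). Blue bars are gene-desert peaks. In the medium comparison the lower share goes from 7.71% within 50 kb to 17.5% beyond 1 Mb, and the estradiol share stays between 0.566% and 0.952%.

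Among the named sites that were more open in complete medium, the largest changes were beside IMMP2L, which encodes a mitochondrial inner membrane peptidase. At chr7:110397895-110398154, inside the lncRNA gene LOC105375451, starved vehicle libraries had 0, 0.497, 0 and 0.546 CPM and complete vehicle libraries 8.87, 7.15, 9.98 and 9.34 CPM. No starved library came near the complete ones, and the log2 difference was 4.68 (SE 0.368, edgeR adjusted p = 9.26e-18). A neighbouring peak, chr7:110399566-110399896, differed by 4.70 (SE 0.533, edgeR adjusted p = 4.76e-11). At chr18:43876665-43877046, 599 kb from the synaptotagmin gene SYT4, starved vehicle libraries had 1.15, 2.49, 0.802 and 2.64 CPM, and complete vehicle had 16.1, 13.5, 18.3 and 21.5 CPM. That difference was 3.09 (SE 0.231, edgeR adjusted p = 1.27e-18), and with estradiol the starved libraries had 4.48 CPM ± 1.12 (n = 4). At chr12:91627321-91627600, 445 kb from the gene for the matrix protein decorin, DCN, starved vehicle had 0.429 CPM ± 0.0997, starved estradiol 0.596 CPM ± 0.313 and complete vehicle 5.47 CPM ± 0.897 (n = 4 each). This site was low in both starved groups, and its estradiol change was 0.52 with an approximate 95% interval of -0.71 to 1.75, taken from the SE as are the intervals below. At chr5:58095448-58095649, 358 kb from the polo-like kinase gene PLK2, the same groups had 1.07 CPM ± 0.423, 4.23 CPM ± 1.30 and 9.66 CPM ± 0.905 (n = 4 each), with starved estradiol between the others.

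The sites named for lower accessibility in complete medium were open in both starved groups. At chr3:177973505-177973725, 563 kb from KCNMB2, which encodes a potassium channel subunit, starved vehicle libraries had 17.3, 17.0, 9.22 and 10.1 CPM and complete vehicle libraries 0.865, 1.69, 2.16 and 2.04 CPM. Starved estradiol libraries had 13.1, 14.6, 9.86 and 10.8 CPM. Both starved groups lay far above the complete group, and accessibility fell by 3.05 on the log2 scale (SE 0.274, edgeR adjusted p = 6.21e-13). At chr8:89100826-89101237, 657 kb from the kinase gene RIPK2, the means were 7.69 CPM ± 2.53 in starved vehicle, 8.28 CPM ± 2.49 with estradiol and 1.1 CPM ± 0.39 in complete vehicle (n = 4 each). At chr2:146633275-146633515, 1210 kb from the activin receptor gene ACVR2A, they were 5.27 CPM ± 0.949, 5.07 CPM ± 0.397 and 0.68 CPM ± 0.273. At chr5:164962308-164962638, 1440 kb from MAT2B in the desert before TENM2, they were 7.05 CPM ± 3.18, 6.19 CPM ± 1.43 and 1.31 CPM ± 0.249 (n = 4 each). In each of these the estradiol change was small, with intervals (95%) of -0.42 to 0.34 beside RIPK2, -0.51 to 0.29 beside ACVR2A and -0.69 to 0.12 beside MAT2B.

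Of the lncRNA windows printed above, LINC03007, LINC00494, LOC105373451 and LOC105377378 were chosen because their peaks differed between media, in each direction. Changes both ways therefore follow from that choice. The peak over the start of LINC03007, 435 kb from NPVF, had 0.346, 0.995, 0 and 1.64 CPM in starved vehicle and 6.27, 6.5, 8.64 and 6.71 CPM in complete vehicle libraries. The groups did not overlap, and the difference was 2.87 on the log2 scale (SE 0.316, edgeR adjusted p = 2.13e-11). The peak over LINC00494 went from 0.544 CPM ± 0.339 to 2.24 CPM ± 0.313 (log2 difference 2.21, SE 0.463, edgeR adjusted p = 0.000192). The peak upstream of LOC105373451, whose printed sequence has a forkhead match, had 10.1, 11.1, 6.01 and 6.46 CPM in starved vehicle and 2.27, 3.12, 2.57 and 2.63 CPM in complete vehicle. Every complete library was lower, by 1.72 on the log2 scale in the fit (log2 difference -1.72, SE 0.247, edgeR adjusted p = 7.61e-08). The peak upstream of LOC105377378 went from 1.58 CPM ± 1.11 to 0.257 CPM ± 0.214 (log2 difference -2.80, SE 0.643, edgeR adjusted p = 0.000685). Of the 160 tested peaks that overlap an lncRNA promoter window, 9 gained and 15 lost accessibility in complete medium (5.62% and 9.38%), near the 7.93% and 9.91% of all tested peaks. The peaks just upstream of LOC105369583 and MIR4458HG were the most accessible, at 108 and 67.5 CPM over all libraries, and were not called between media.

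Of the 780 deserts with a tested peak, 571 held at least 1 call between media. Among tested gene-desert peaks 6.03% were higher and 14.4% lower, beside 7.93% and 9.91% of all tested peaks. At either set of rates a desert with many tested peaks would often hold a call, so the 571 is not read as a trait of deserts. Among the 217 deserts with 5 or more calls, 167 had more lower than higher, 48 had more higher, and 2 had equal numbers. All calls were lower in 32 of them and all higher in 6. Of all gene-desert peaks called between media, 70.5% were lower. On chromosome 3, the desert between TBL1XR1 and KCNMB2 had 10 higher and 23 lower of 97 tested. The chromosome 5 desert between MAT2B, which encodes a subunit of methionine adenosyltransferase, and TENM2, a teneurin cell adhesion gene, had 3 higher and 26 lower of 129. The chromosome 4 desert between IGFBP7, an insulin-like growth factor binding protein gene, and LOC124900173 had 4 higher and 24 lower of 66, with a median log2 change of -0.807 over its tested peaks. The chromosome 10 desert between GATA3, which encodes a luminal transcription factor, and CELF2 had 13 higher and 10 lower of 124, and 3 peaks raised by estradiol. The chromosome 8 desert between TRPS1 and EIF3H had 11 higher and 10 lower of 56. Between IRF8 and FOXF1 on chromosome 16 all 8 calls of 22 tested peaks were higher. This desert and the one between TRPS1 and EIF3H fell outside the rule for named deserts and were chosen after their values were seen. Deserts with many peaks were not always those with many calls: the chromosome 20 desert between ZNF337 and LOC124904970, 5116.57 kb long, had 1 higher and 4 lower of 118, and the chromosome 11 desert between IFTAP and LRRC4C had 3 and 16 of 102. Peaks of 1 desert are neighbours and not independent.

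**Figure D4:**
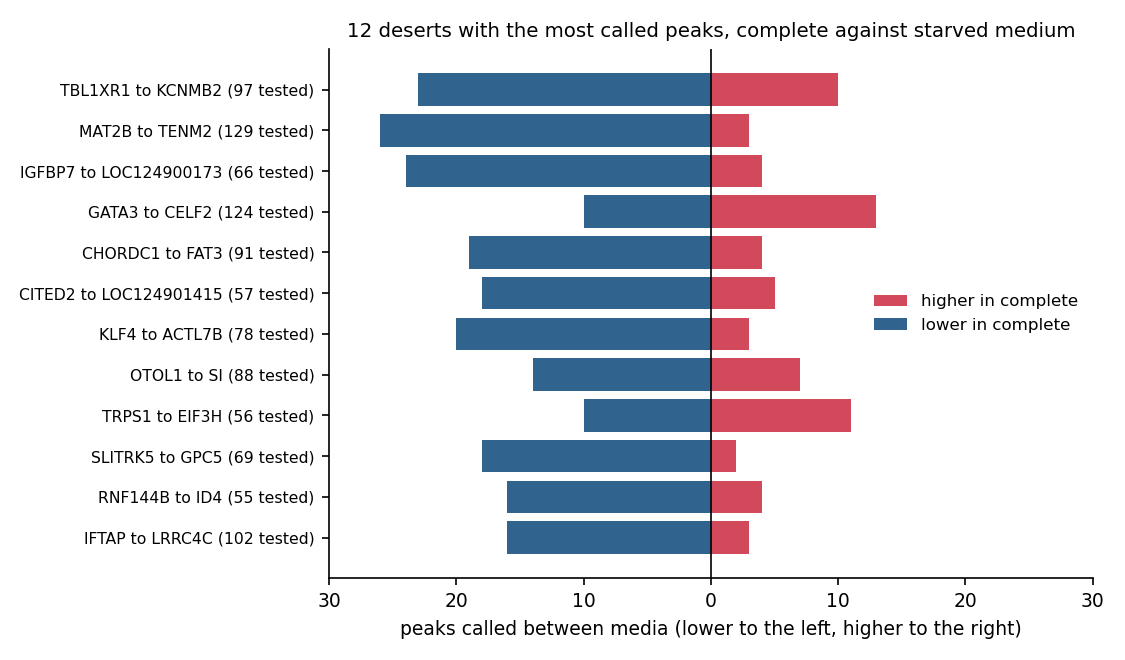
Number of gene-desert peaks higher (to the right) and lower (to the left) in complete than in starved vehicle medium, for the 12 deserts with most calls between media. The desert between MAT2B and TENM2 has 26 lower and 3 higher, and the one between GATA3 and CELF2 has 10 lower and 13 higher.

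Gene-desert peaks were also grouped by the nearest coding gene, and the counts of each list are given with no test. Beside them, over all tested peaks estradiol raised 0.813% and lowered 0.0223%, and 7.93% were higher and 9.91% lower in complete medium. Over all tested gene-desert peaks these shares were 0.833%, 0.0579%, 6.03% and 14.4%. The lists were written with earlier results of these data known. For 109 developmental regulators, 65 of which were nearest to a gene-desert peak, 897 peaks were tested; 9 rose and 1 fell with estradiol (1.00% raised), and 64 gained and 130 lost accessibility in complete medium (7.13% and 14.5%). For 100 neuronal and adhesion genes, 74 of which were nearest to a peak, 1335 were tested; 7 rose and 1 fell with estradiol (0.524% raised), 55 gained and 235 lost accessibility in complete medium (4.12% and 17.6%), and the median log2 change between media was -0.217. For 56 estrogen-induced or luminal genes, 55 found in the gene table and 15 nearest to a peak, 403 were tested; 10 rose and 1 fell with estradiol (2.48% raised), 53 gained and 51 lost accessibility in complete medium (13.2% and 12.7%), and the median was 0.034. TRPS1, which encodes a transcription factor, stands in the neuronal list as well as the luminal list. Nearest to GATA3, 82 peaks were tested, 2 of which rose with estradiol, and 13 were higher and 8 lower in complete medium. Nearest to MYC the numbers were 71 tested, 2 raised by estradiol, 11 higher and 3 lower, and nearest to TRPS1 63 tested, 2 raised, 10 higher and 10 lower. Nearest to TENM2, 66 were tested, with 0 raised by estradiol, 0 higher and 14 lower between media, and nearest to NCAM2, a neural cell adhesion gene, 1 of 61 was higher and 15 lower. Nearest to CITED2, 41 were tested, with 1 raised by estradiol, 2 higher and 13 lower between media, and nearest to NR2F2 the numbers were 58, 1, 2 and 9.

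After 1 h of estradiol, starved cells still differed from cells in complete medium at many desert sites. Starved estradiol libraries against complete vehicle libraries gave 1875 higher and 762 lower gene-desert peaks (13.6% and 5.52%), beside 9.39% and 7.24% of all tested peaks. This comparison shares the starved estradiol libraries with the first comparison and the complete vehicle libraries with the second. At chr2:5474759-5475027, 217 kb from the developmental factor gene SOX11, starved estradiol libraries had 0.125, 0.639, 0.51 and 0.643 CPM and complete vehicle libraries 3.57, 2.73, 4.32 and 5.4 CPM. All estradiol libraries were lower (log2 difference -2.99, SE 0.38, edgeR adjusted p = 4.04e-09). At chr3:182118154-182118419, 404 kb from the stem cell factor gene SOX2, they had 0.622 CPM ± 0.308 and 4.18 CPM ± 1.03 (n = 4 each, log2 difference -2.78, SE 0.364, edgeR adjusted p = 1.04e-08).

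No gene-desert peak was called for any antagonist. With edgeR, 0 of 13806 passed the adjusted threshold for fulvestrant, raloxifene or tamoxifen against complete vehicle, or between any pair of them. Over all tested peaks 0% were called for fulvestrant, tamoxifen, fulvestrant against tamoxifen and raloxifene against tamoxifen. For raloxifene 0.000638% were called higher, and for fulvestrant against raloxifene 0.000638% lower, which is 1 peak each and none in a desert. At an unadjusted p under 0.05, edgeR gave 584 gene-desert peaks for fulvestrant, 565 for raloxifene and 615 for tamoxifen, and 660, 765 and 621 for fulvestrant against raloxifene, fulvestrant against tamoxifen and raloxifene against tamoxifen. DESeq2 gave 444, 354, 438, 588, 654 and 400 in the same order, and called 0 after adjustment in all 6. The edgeR shares of all tested peaks under the same unadjusted p were 3.96%, 3.81%, 4.13%, 5.16%, 5.27% and 3.92%. Counts were also simulated at the depths of these libraries, with 50 gene-desert peaks changed by each fold in the estradiol group. Of peaks raised 1.5-fold 6% were called, of those raised 2-fold 32%, of those raised 4-fold 94% and of those lowered 2-fold 18%. The simulated spread followed the trend with abundance alone, and groups had otherwise equal means. These rates therefore need not hold for the real data, and the antagonist comparisons were not simulated. In replicates 3 and 4 alone, which hold the shallow fulvestrant replicate 4, fulvestrant gave 8 higher and 1 lower. Calls over all tested peaks were not counted in that subset, so these calls are not read as particular to deserts.

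The 115 sites raised by estradiol in starved cells were then read in complete medium, in libraries that did not choose them. Their mean accessibility was 3.52 to 4.38 CPM in starved vehicle libraries and 8.86 to 9.83 CPM with estradiol, which chose them, and 9.89 to 10.4 CPM in complete vehicle (10.1 CPM ± 0.225, n = 4). It was 10.2 CPM ± 0.515 with raloxifene and 9.79 CPM ± 0.732 with tamoxifen (n = 4 each), both overlapping complete vehicle. The fulvestrant libraries ran from 4.14 to 9.78 CPM (7.60 CPM ± 2.58, n = 4), all below the complete vehicle libraries. The 4.14 CPM is that of the shallow replicate 4, which was also low over all 13806 tested gene-desert peaks, at 2.57 CPM against 3.26 to 3.34 CPM in the other fulvestrant libraries. The median log2 change of the 115 was -0.246 for fulvestrant, with 98 below 0 (85.2%) and 21 at an unadjusted p under 0.05. Over all tested peaks the median was -0.01, with 51.5% below 0 and 3.96% under that p. It was 0.012 for raloxifene (55 below 0) and -0.072 for tamoxifen (69 below 0), and the 3 comparisons share the complete vehicle libraries. Between antagonists the median was -0.267 for fulvestrant against raloxifene, -0.164 for fulvestrant against tamoxifen and 0.072 for raloxifene against tamoxifen. The fulvestrant median was -0.213 without replicate 4 and -0.166 without replicate 3, and it was -0.149 in replicates 1 and 2 alone and -0.656 in replicates 3 and 4 alone. No test was run on these medians. In the medium comparison, which shares the starved vehicle libraries that chose them, 94 of the 115 were higher in complete medium, beside 7.93% of all tested peaks, and nothing is read from this count.

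**Figure D5:**
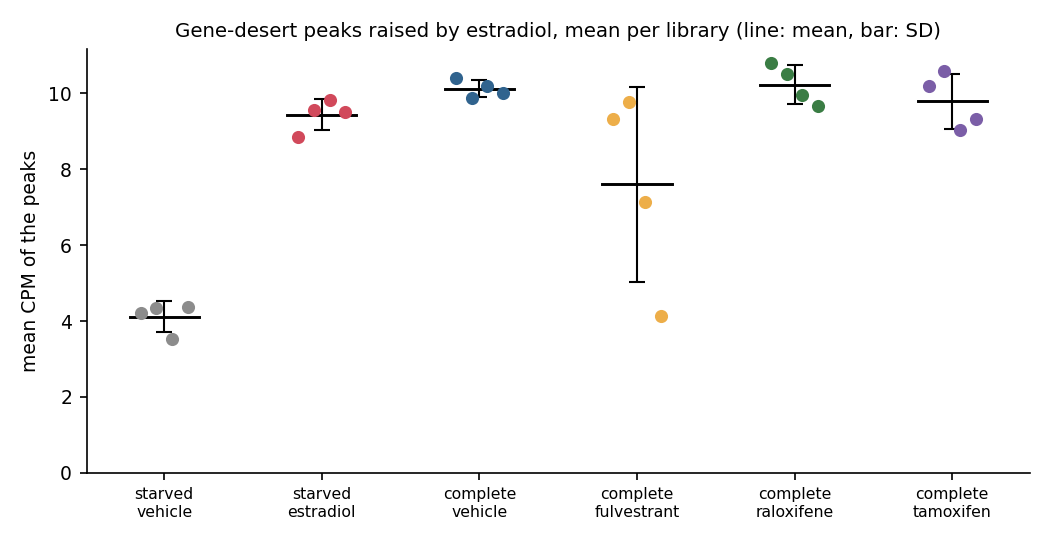
Mean accessibility in CPM of the 115 gene-desert peaks raised by estradiol, per library (points), with the group mean (line) and SD (bar). Complete vehicle libraries lie between 9.89 and 10.4 CPM, fulvestrant libraries between 4.14 and 9.78 CPM, and the starved groups, which chose the peaks, at 3.52 to 4.38 and 8.86 to 9.83 CPM.

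Single sites with the smallest p for an antagonist did not pass the adjustment in the fit of group means. At chr12:23225839-23226076, 304 kb from SOX5 and raised by estradiol, complete vehicle libraries had 10.7, 8.06, 10.3 and 8.32 CPM and fulvestrant libraries 6.31, 3.70, 3.85 and 0 CPM. All fulvestrant libraries were lower, and the log2 change was -1.0 (SE 0.217, edgeR unadjusted p = 1.59e-05, adjusted p = 1). With the replicate set nested in medium this site was called, with a log2 change of -1.05 (edgeR adjusted p = 0.0346), and with the replicate block it was not (edgeR adjusted p = 0.156). With raloxifene it had 8.67 CPM ± 1.07 and with tamoxifen 8.40 CPM ± 1.13 (n = 4 each), with intervals for the change (95%) of -0.46 to 0.22 and -0.54 to 0.16. Fulvestrant against raloxifene gave -0.88 there, with an interval of -1.31 to -0.45 and an edgeR adjusted p of 0.964. At chr6:105628507-105628839, also raised by estradiol, complete vehicle had 4.97, 5.98, 4.73 and 4.67 CPM and tamoxifen 3.01, 3.62, 1.64 and 1.60 CPM. All tamoxifen libraries were lower, with a log2 change of -1.09 (SE 0.271, edgeR unadjusted p = 0.000134, adjusted p = 1). Fulvestrant and raloxifene had 3.18 CPM ± 1.62 and 3.37 CPM ± 0.531 at this site (n = 4 each).

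The sites that follow, apart from the one beside MYC, were picked for a small p in an antagonist comparison and were not called in it. Their changes and intervals are therefore extremes of many. At chr6:120141709-120141945, 791 kb from the mannosidase gene MAN1A1 and raised by estradiol, the raloxifene libraries lay above the fulvestrant and vehicle libraries. The raloxifene change from vehicle was 0.479 on the log2 scale. Raloxifene libraries had 15.1, 13.5, 12.3 and 13.5 CPM, complete vehicle libraries 9.95, 10.1, 9.47 and 9.63 CPM, and fulvestrant libraries 10.4, 7.64, 4.95 and 3.14 CPM. The raloxifene and fulvestrant libraries did not overlap, and their log2 difference was -0.76 for fulvestrant against raloxifene (SE 0.169, edgeR adjusted p = 0.624). Fulvestrant overlapped the vehicle, with an interval for its change (95%) of -0.63 to 0.08. At chr8:57492652-57492875, inside the lncRNA gene LOC105375855, raloxifene had 2.90 CPM ± 0.594, complete vehicle 5.36 CPM ± 0.153 and tamoxifen 5.37 CPM ± 1.4 (n = 4 each). The raloxifene change was -0.91 (SE 0.237, edgeR adjusted p = 1) and the raloxifene difference from tamoxifen -0.92 with an interval (95%) of -1.39 to -0.45. At chr17:71527389-71527620, 594 kb from the gene for the developmental factor SOX9, fulvestrant libraries had 9.60, 10.5, 8.06 and 0 CPM and complete vehicle libraries 3.89, 7.02, 5.14 and 4.67 CPM. The first 3 fulvestrant libraries were above every vehicle library and the shallow replicate 4 was at 0 (log2 change 0.85, SE 0.212, edgeR adjusted p = 1). At chr6:141421460-141421660 the 4 complete vehicle libraries held 42 counts together (1.30 CPM ± 0.597) and the 4 tamoxifen libraries 2 (0.0654 CPM ± 0.131), the smallest tamoxifen p among gene-desert peaks (edgeR unadjusted p = 1.37e-05, adjusted p = 1). The strong site beside MYC had 87.7 CPM ± 4.14 in complete vehicle, 92.9 CPM ± 3.32 with raloxifene and 91.0 CPM ± 7.69 with tamoxifen (n = 4 each). Its intervals for the change (95%) were -0.29 to 0.14 for fulvestrant, -0.11 to 0.28 for raloxifene and -0.15 to 0.25 for tamoxifen.

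The most accessible gene-desert peaks had small differences between media, apart from the MYC site. The strongest, chr11:134639884-134640112, lies just upstream of LOC105369583 at 228 kb from B3GAT1, a glucuronyltransferase gene, in the stretch that ends chromosome 11. Starved vehicle libraries had 99.9, 95.9, 138 and 100.0 CPM and complete vehicle libraries 119, 110.0, 116 and 122 CPM. These groups overlapped, and the log2 difference of 0.16 was not called (SE 0.0966, edgeR adjusted p = 0.283). The peak at chr11:134656692-134656949 in the same stretch had 71.6 CPM ± 7.96 and 93.5 CPM ± 4.75 (n = 4 each), a called difference of 0.42 (SE 0.0907, edgeR adjusted p = 0.000359). Both strong peaks inside LINC00578 beside TBL1XR1 changed little: chr3:177596995-177597240 differed by 0.27 between media (SE 0.0944, edgeR adjusted p = 0.0357) and chr3:177478561-177478818 by 0.09 (SE 0.097, edgeR adjusted p = 0.584). The tested peaks farthest from any coding gene were 5 on the short arm of chromosome 22, at 4810 to 4840 kb from the olfactory receptor gene OR11H1. The strongest of them, chr22:10687391-10687609, had 9.73 CPM ± 2.24 in starved vehicle and 10.1 CPM ± 1.28 in complete vehicle (n = 4 each), and none of the 5 was called in any comparison.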

How the data were processed

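ATAC-seq libraries of T47D cells, 6 groups of 4, were grouped by title. Per the submitters' processing notes, the authors used cutadapt 1.8.1, Bowtie2 2.4.4 and SAMtools 1.9 on hg38. For the peak caller, the counter, duplicates and any Tn5 shift, the tool or setting was not given in the sources used here. Raw counts per peak were deposited for all 24 libraries in 1 peak set, with no normalization by the authors. The deposited table does not say whether starts count from 0 or 1, and coordinates are printed as given.

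Distances ran from a peak's midpoint to the nearest of 19875 protein-coding gene intervals (RefSeq, GRCh38.p14; 177 entries on scaffolds were left out) and 18010 lncRNA genes. Counts were fitted with edgeR 4.0.16 in R 4.3.3 (filterByExpr with minimum count 10 and minimum total 15, TMM, robust quasi-likelihood, 6 group means, no covariate), which tested 156745 peaks. P-values are two-sided and Benjamini-Hochberg adjusted over all of them. The SE is the log2 change over the root of F, an approximation, and fitted changes weigh libraries by depth, so they can differ from ratios of mean CPM. No 2 libraries of a group agreed within sampling noise (36 pairs checked), so none was merged. The fit was tested on simulated data. Motifs had been planned for whole peaks, but no genome was used here, so only RefSeq promoter windows were searched. Alternatives were DESeq2 1.42.0, other scalings and filters, other distance and run limits, a replicate block, and leaving out each library. The replicate sets and the removal of stretches at chromosome ends or over 5 Mb were added after seeing the data.

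The peaks, gene lists and tests were chosen with earlier results of these data known. Named peaks are, for estradiol and for medium, up to 12 called peaks a direction with the largest log2 change among those above the median abundance of tested gene-desert peaks whose groups do not overlap. For other comparisons they are up to 5 called a direction or, with none called, the 3 smallest p, then the 5 highest mean CPM, the 5 farthest from coding genes, and the deserts with most tested or called peaks. One lowered peak and 1 desert are not reported here.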

Additional observations from a re-analysis of the deposited data

Results flagged for a closer look

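For named peaks and for the share of counts of each of the 6 groups, 90 groups of 4 libraries were examined. Starved vehicle libraries of peaks named for both estradiol and medium were examined in both. In 4 of the 90, all at named peaks, 1 library lay far from the other 3, and chance alone flags about 1 in 20 such groups. At chr12:23235581-23235781, near SOX5, starved estradiol replicate 1 had 2.13 CPM, below 3.20 to 3.34 CPM in the others. At chr3:164634939-164635184, near SI, starved estradiol replicate 4 had 4.63 CPM, below 6.38 to 6.71 CPM. At chr10:107618422-107618627, near SORCS1, starved estradiol replicate 2 had 7.14 CPM, above 4.38 to 4.63 CPM, and starved vehicle replicate 4 had 7.64 CPM, below 9.62 to 9.70 CPM. All of these libraries stayed on their group's side of the other group, which the rule for named peaks required.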

How the results depend on the processing

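The estradiol count of 115 higher peaks was 203 with a limit of 100 kb, 41 with 500 kb and 69 in replicates 3 and 4 alone, and 87 to 124 when each library was left out. The 8 lower peaks became 3 at 500 kb, 2 at a 2-fold minimum, 15 with the replicate number as a block, 13 with the replicate set nested in medium, 5 with only the groups compared, 3 in replicates 1 and 2, 5 in replicates 3 and 4 and 1 with DESeq2, and 2 to 11 with a library left out (2 without starved estradiol replicate 4). For medium, the 833 higher became 1530 at 100 kb, 241 at 500 kb and 366 in replicates 3 and 4, with 668 to 874 when libraries were left out. The 1991 lower became 3203, 764, 1157 among peaks above the median abundance, 1286 without both conflicting-label libraries and 764 in replicates 3 and 4, with 1530 to 2079 when libraries were left out. For starved estradiol against complete vehicle, the 1875 higher became 3027, 687, 1095 above the median abundance, 1064 without the conflicting-label libraries and 805 in replicates 3 and 4 (1481 to 1973 with a library left out). The 762 lower became 1409, 212, 468 at a 2-fold minimum, 466 without the conflicting-label libraries, 442 and 318 in the replicate sets and 497 with DESeq2 (594 to 793).

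For the antagonists and their pairs, leaving out any library kept 0 calls (0 to 0). In replicates 3 and 4 alone fulvestrant gave 8 higher and 1 lower, fulvestrant against raloxifene 14 and 1, and fulvestrant against tamoxifen 26 higher; the nested set gave 1 lower for each of these, and the block 1 lower for fulvestrant against raloxifene. The subset of replicates 3 and 4 holds the shallow fulvestrant replicate 4, while the block and nested fits use all 24 libraries, as the main fit does. The cause of these calls was not tested. For the alternative fits of this section, calls were counted among gene-desert peaks only and not over all tested peaks. The replicate block gave 139 higher and 15 lower for estradiol, 922 and 2177 for medium and 2088 and 890 for starved estradiol against complete vehicle. Whether replicate numbers pair the libraries was not settled by correlations of their deviations. Same-numbered deviations gave -0.136 to 0.139 (median 0.0582) over 60 pairs of libraries, 11 of which exceeded 0.1. Over 60 pairs with another number from the same replicate set the median was 0.0461, and 6 exceeded 0.1. Over 120 pairs across the replicate sets the median was -0.0542, and 1 exceeded 0.1. Medians were thus higher within a replicate set than across sets, and close for same and other numbers within a set. Of 24 libraries, 8 correlated best with their own number, and no test was run on these correlations.

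Shares of counts depend on the limits by construction. In the order starved vehicle, starved estradiol, complete vehicle, fulvestrant, raloxifene and tamoxifen they were 8.66%, 8.62%, 8.08%, 8.69%, 7.92% and 7.98% at 100 kb and 1.71%, 1.69%, 1.52%, 1.66%, 1.5% and 1.51% at 500 kb. With dense runs kept they were 5.36%, 5.33%, 4.95%, 4.85% and 4.87%, and without runs of 4 or more 4.54%, 4.5%, 4.1%, 4.03% and 4.07%, leaving out fulvestrant, which moved by less than its spread. With a library left out they ran 4.99% to 5.07%, 4.94% to 5.02%, 4.56% to 4.62%, 4.65% to 5.11%, 4.48% to 4.56% and 4.5% to 4.58%. Of 2573 alternative values at named peaks, 2522 kept direction and side of the threshold, 50 lost the call, 1 gained it (the fulvestrant change at chr12:23225839-23226076 with the nested set) and 0 reversed. Some named peaks gave no value with the stricter filter or with only the groups compared.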
